A study of Mus musculus with 8 samples.

Results

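The G1 cyclins and their kinases examined here are 9 genes, found in the counts table by their mouse Entrez gene ID among 24573 genes. They are the D cyclins Ccnd1 (Entrez ID 12443), Ccnd2 (12444) and Ccnd3 (12445), the E cyclins Ccne1 (12447) and Ccne2 (12448), the kinases Cdk2 (12566), Cdk4 (12567) and Cdk6 (12571), and the phosphatase Cdc25a (12530). All 9 passed the filter on low counts. RNA was sequenced from C2C12 cells, a mouse line of muscle precursors that divides as myoblasts in serum, kept sub-confluent in growth medium. The cells carried a lentivirus, selected with puromycin, for an shRNA against Brd9, against Baf250A (the product of Arid1a) or against Baf180 (the product of Pbrm1), or for a scrambled control shRNA, with 2 libraries in each of the 4 groups. Each target belongs to a different form of the SWI/SNF chromatin remodeller: Brd9 to non-canonical BAF, Baf250A to canonical BAF and Baf180 to PBAF. The titles carry a single construct name per target, while the genotype labels say shRNAs in the plural, so an effect of a hairpin or of a transduced line cannot be told apart from loss of the target.

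In a dividing cell the D cyclins are made in response to growth signals and switch on Cdk4 and Cdk6, which begin to phosphorylate the retinoblastoma protein family. This frees E2F transcription factors, whose targets include the E cyclins, and cyclin E with Cdk2 completes the phosphorylation and starts DNA replication. Cdc25A removes inhibitory phosphates from Cdk2. In myoblasts the cyclin D1 kinase opposes MyoD and differentiation, while cyclin D3 is known to accumulate as myoblasts leave the cycle.

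The 3 D cyclins are close relatives, so the letters that tell their reads apart are shown first. In GENCODE M21 transcripts on GRCm38 their coding sequences, without the stop codon, were 885 (Ccnd1, chromosome 7), 867 (Ccnd2, chromosome 6) and 876 bases (Ccnd3, chromosome 17). Identity over aligned coding bases was 71.3% between Ccnd1 and Ccnd2, 66.7% between Ccnd1 and Ccnd3 and 68.9% between Ccnd2 and Ccnd3. The longest stretch shared letter for letter by any pair of their transcripts was 20 bases, between Ccnd1 and Ccnd2. The most alike window of 90 coding bases began at coding base 178 in Ccnd1, 172 in Ccnd2 and 178 in Ccnd3, and capitals mark the 23 positions at which the 3 genes are not all the same:
Ccnd1: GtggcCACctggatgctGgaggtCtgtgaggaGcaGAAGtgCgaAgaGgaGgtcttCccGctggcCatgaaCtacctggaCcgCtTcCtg
Ccnd2: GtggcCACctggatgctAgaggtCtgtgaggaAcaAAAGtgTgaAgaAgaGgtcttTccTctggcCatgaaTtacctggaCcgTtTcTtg
Ccnd3: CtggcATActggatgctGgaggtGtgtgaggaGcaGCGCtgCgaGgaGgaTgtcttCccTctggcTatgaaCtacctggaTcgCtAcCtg
The E cyclins shared 62.3% of aligned coding bases and at most 18 letters in a row.

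Library totals were 17763062 to 20400855 estimated counts. Scramble replicate 2 stood apart in genes detected, with 16402 against 14195 to 14768 in the other libraries, and it enters every comparison with scramble. Each call on the 9 genes that is lost without it is named beside its value. Brd9 had 7.61 and 7.07 CPM (counts scaled to library size) in its knockdown and 34.4 to 43.3 in the other libraries, Arid1a 67.1 and 64.2 and 157 to 178, and Pbrm1 3.77 and 4.69 and 49.2 to 120. Each targeted gene was lower in the libraries of its own shRNA than in the scramble libraries, by 5.24-fold for Brd9, 2.41-fold for Arid1a and 12.4-fold for Pbrm1 (edgeR quasi-likelihood test, adjusted p = 7.48e-05, 0.000184 and 7.04e-05). The labels do not say whether the libraries of a group were grown separately, and the p-values speak only of how far these libraries spread, which may be technical variation. A broad trend with base composition ran through the libraries. The Spearman rho between transcript GC content and log2 fold change, taken over the 12420 tested genes, which are not independent replicates, was -0.30 in the Brd9 comparison, -0.53 in the Baf250A comparison and 0.59 in the Baf180 comparison, each with scramble. The 9 genes span 35.5% (Ccne2) to 58.9% GC (Ccnd3). Results on the 9 genes are therefore given after TMM scaling and again with offsets that remove, library by library, the trend of all genes with GC content and gene length, called the adjusted values below. How far that trend is technical was not tested. Among the targets, Pbrm1 was also called higher in Baf250A cells (log2 fold change 0.89, adjusted p = 0.0211 by edgeR), with an adjusted value of 0.17 that was not called (adjusted p = 0.160). In Brd9 cells Pbrm1 stood at 0.15 (adjusted p = 0.701), and its adjusted value of -0.32 was called (adjusted p = 0.0221). Of the myoblast markers, Myod1 lay at 101 to 366 CPM and Des at 563 to 2065 CPM in all groups, each with its lowest value in a Baf250A library. Myod1 had 129 and 101 CPM in Baf250A and 154 and 157 in scramble libraries, and Des 739 and 563 against 975 and 951. Of the others in the list, 4 were called lower and 1 higher in Baf250A cells, with values given near the end. The epithelial marker Epcam had no count in any library. In whole-culture RNA, fewer cells in a phase of the cycle and less RNA per cell cannot be told apart.

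The calls made under both processings were the following. Under Brd9 knockdown Ccnd1 and Ccnd2 were lower, under Baf180 knockdown Ccnd1, Ccnd2 and Cdc25a were lower, and under Baf250A knockdown Ccne1 and Cdk4 were lower and Ccne2 higher. Further calls rested on a single processing and are given with both values.

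As counts, 2 of the 9 genes were lower and 0 higher in Brd9 cells at an adjusted p below 0.05, where 10.0% of all tested genes were called (6.45% higher and 3.57% lower). In Baf250A cells 2 were lower and 1 higher, beside 29.5% of all genes (15.5% higher and 14.0% lower), so the share of the 9 called was near that of all genes. In Baf180 cells 5 were lower and 1 higher, beside 34.2% of all genes (17.2% higher and 17.0% lower). With the offsets, 7 were lower and 0 higher in Brd9 cells, beside 30.1% of all genes (11.8% higher and 18.3% lower). In Baf250A cells 3 were lower and 3 higher, beside 35.1% (17.7% higher and 17.4% lower), and in Baf180 cells 4 were lower and 0 higher, beside 37.8% (17.8% higher and 20.1% lower). The median log2 fold change of the 9 genes was -0.30 for Brd9, -0.12 for Baf250A and -0.61 for Baf180, against 0.04, -0.02 and -0.02 over all tested genes. Adjusted medians were -0.34, -0.07 and -0.53, against -0.06, 0.00 and -0.03. All 3 comparisons use the same scramble libraries.

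Per length of transcript, Cdk4 was the most abundant of the 9 genes in every group. In scramble cells it stood at 620 ± 21.9 RPKM (CPM per kilobase of transcript, SD, n = 2), above Ccnd1 at 135 ± 5.28, Ccnd3 at 109 ± 2.93, Ccne1 at 43.8 ± 0.504 and Cdk2 at 28.9 ± 0.723 RPKM. Lower levels were those of Cdc25a at 18.7 ± 0.604, Ccnd2 at 12.2 ± 0.408, Cdk6 at 6.21 ± 0.898 and Ccne2 at 3.32 ± 0.680 RPKM.

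**Figure D1:**
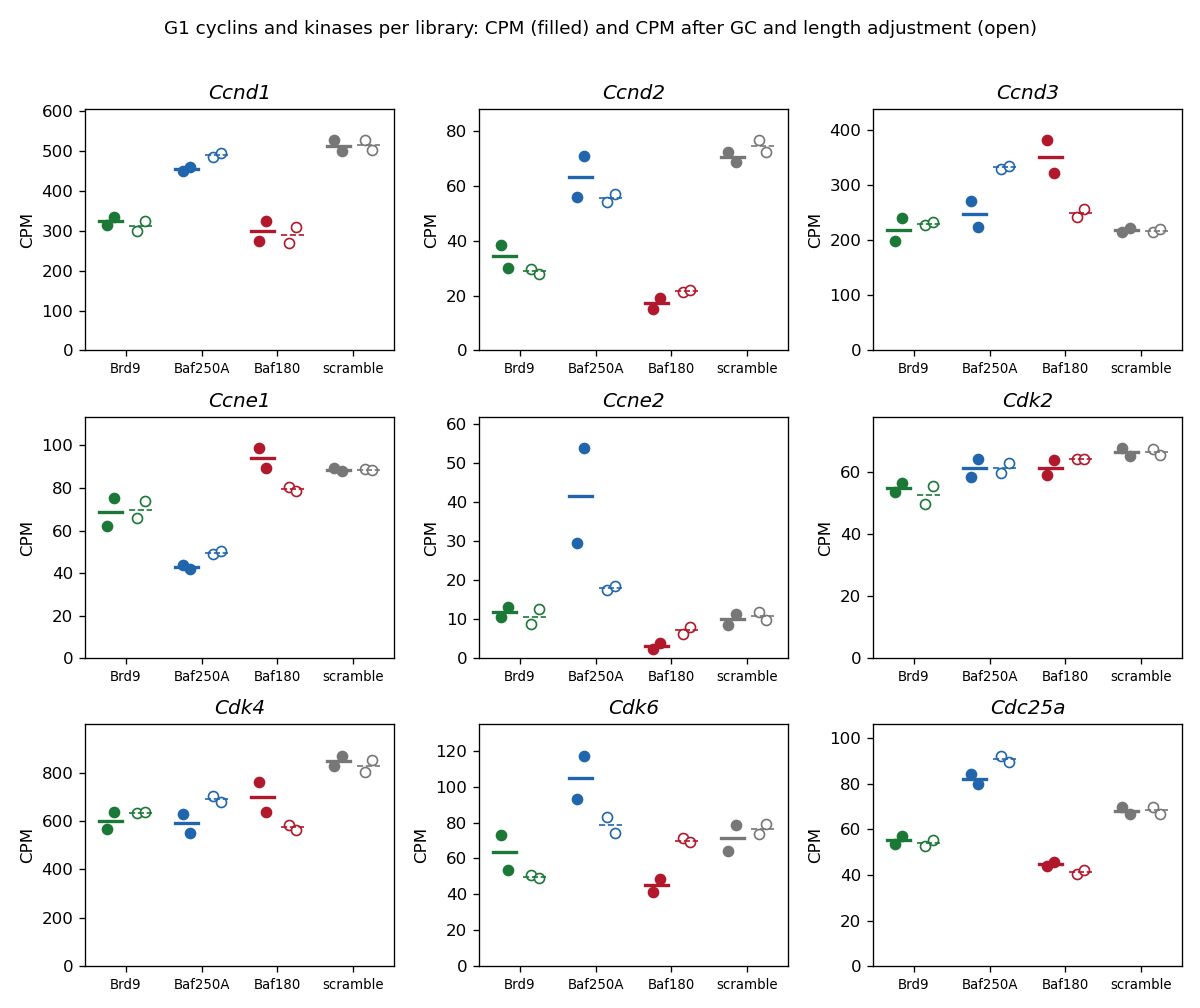
CPM of each gene in each library (filled points, mean as a solid line) and CPM after removal of the GC and length trend (open points, mean as a dashed line), with the shRNA group on the x axis and CPM from 0 on the y axis, 2 libraries per group. Ccnd2 in the Baf180 libraries lies at 15.2 and 19.0 CPM, below every other library, and the pair of Ccne2 values in Baf250A cells, 29.5 and 53.9 CPM, closes to 17.5 and 18.5 after adjustment.

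Among the D cyclins, Ccnd1 and Ccnd2 were lower under Brd9 and Baf180 knockdown. Ccnd1 (chromosome 7, 144929931 to 144939831, mm10, the same assembly as GRCm38) is the D cyclin most tied to growth factor signals. It had 315 and 334 CPM in Brd9 cells, 450 and 460 in Baf250A cells, 274 and 325 in Baf180 cells, and 526 and 498 in scramble cells. The Brd9 and Baf180 libraries overlapped each other and lay below all Baf250A and scramble libraries. Against scramble, Ccnd1 fell 1.58-fold in Brd9 cells (log2 fold change -0.66, SE 0.13, adjusted p = 0.0150 by edgeR) and 1.71-fold in Baf180 cells (-0.77, SE 0.13, adjusted p = 0.00320). The adjusted values were -0.72 (adjusted p = 0.000471) and -0.83 (adjusted p = 0.000118). In Baf250A cells the difference was -0.17 (95% interval -0.46 to 0.12, adjusted p = 0.328) and, adjusted, -0.07 (adjusted p = 0.587). The Brd9 call was lost on leaving out scramble replicate 1, scramble replicate 2 or Brd9 replicate 1 (adjusted p up to 0.136), and with the offsets it was made in 8 of 8 such fits (adjusted p up to 0.00763). The Baf180 call was made in 8 of 8 fits either way.

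Ccnd2 (chromosome 6, 127125162 to 127152188), the D cyclin found at lower levels in these cells, showed the largest fall of the 9 genes in both comparisons. It had 794 and 570 counts in Brd9 cells, 1109 and 1368 in Baf250A cells, 263 and 348 in Baf180 cells, and 1283 and 1189 in scramble cells. This was 38.5 and 29.9 CPM in Brd9 cells, 55.8 and 70.6 in Baf250A cells, 15.2 and 19.0 in Baf180 cells, and 72.1 and 68.7 in scramble cells. The Baf180 pair was lowest, the Brd9 pair next, and the Baf250A and scramble pairs overlapped. Relative to scramble, Ccnd2 fell 4.11-fold in Baf180 cells (log2 fold change -2.04, SE 0.19, adjusted p = 0.000184; adjusted value -1.79, adjusted p = 9.57e-07). Brd9 cells had a 2.06-fold fall (-1.04, SE 0.18, adjusted p = 0.00917; adjusted value -1.37, adjusted p = 6.04e-06), whose call without the offsets was lost without either scramble library (adjusted p up to 0.0709). For Baf250A cells the value was -0.16 (adjusted p = 0.528), and with the offsets -0.42, which passed the test (adjusted p = 0.00419) except without Baf250A replicate 1 (adjusted p = 0.0515). Compared directly, Brd9 cells had more Ccnd2 than Baf180 cells (log2 fold change 1.00, adjusted p = 0.00565; adjusted value 0.42, adjusted p = 0.00881). That call was made in 8 of 8 fits with 1 library left out, but with the offsets not without Brd9 replicate 1 or Baf180 replicate 1 (adjusted p up to 0.0725).

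Ccnd3 (chromosome 17, 47505051 to 47599689), the D cyclin linked to muscle differentiation, did not fall with the other two in any comparison with scramble. Its levels were 198 and 240 CPM in Brd9 cells, 271 and 223 in Baf250A cells, 381 and 321 in Baf180 cells, and 214 and 222 in scramble cells. Both Baf180 libraries lay above all others. In Brd9 cells the log2 fold change was 0.01 (95% interval -0.34 to 0.36, adjusted p = 0.970) and, adjusted, 0.08 (adjusted p = 0.479). After TMM scaling Ccnd3 rose 1.61-fold in Baf180 cells (log2 fold change 0.69, SE 0.16, adjusted p = 0.0112), a call that was lost without scramble replicate 1, scramble replicate 2 or Baf180 replicate 1 (adjusted p up to 0.0797). The offsets took this to 0.20 (adjusted p = 0.0776) and put the rise in Baf250A cells instead, at 0.61 (SE 0.08, adjusted p = 0.000271) against 0.18 before (adjusted p = 0.385). Adjusted levels were 227 and 232 CPM in Brd9 cells, 329 and 335 in Baf250A cells, 241 and 256 in Baf180 cells, and 214 and 220 in scramble cells. For genes with the GC content and length of Ccnd3 the trend (log2) was -0.19 and 0.05 for Brd9, -0.28 and -0.59 for Baf250A, 0.66 and 0.33 for Baf180, and -0.00 and 0.01 for scramble. Between Baf250A and Baf180 cells the sign itself depended on this step, with a log2 fold change of -0.51 (adjusted p = 0.0189) before and 0.42 (adjusted p = 0.00155) after. The first call was lost without Baf250A replicate 2 or Baf180 replicate 1 (adjusted p up to 0.187), and the second was made in 8 of 8 fits.

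Ccnd3 took a larger share of the D cyclin transcripts in every knockdown library than in scramble libraries, on either scale. Ccnd3 made up 52.6 and 56.4% of D cyclin RPKM in Brd9 libraries, 51.5 and 45.6% in Baf250A libraries, 71.9 and 64.4% in Baf180 libraries, and 41.5 and 43.8% in scramble libraries. On the adjusted scale its share was 57.5 and 56.4% for Brd9, 54.7 and 54.6% for Baf250A, 61.8 and 60.1% for Baf180, and 41.4 and 43.3% for scramble. The Brd9 and Baf180 shares went with lower Ccnd1 and Ccnd2. Before adjustment the Baf180 shares also went with higher Ccnd3, at 192 and 161 RPKM against 107 and 111 in scramble libraries. In Baf250A libraries adjusted Ccnd3 was higher, at 165 and 168 RPKM against 107 and 110. Adjustment brought the Baf180 shares closer to those of the other knockdowns. The summed D cyclin RPKM was 189 and 214 in Brd9 libraries, 264 and 246 in Baf250A libraries, 266 and 250 in Baf180 libraries, and 258 and 254 in scramble libraries. Adjusted, the sums were 198 and 206 for Brd9, 302 and 308 for Baf250A, 196 and 214 for Baf180, and 259 and 255 for scramble. The Brd9 sums lay below scramble on both scales, the Baf180 sums only after adjustment. With 2 libraries a group an exact test of such a share cannot pass 0.05, and none was run.

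**Figure D2:**
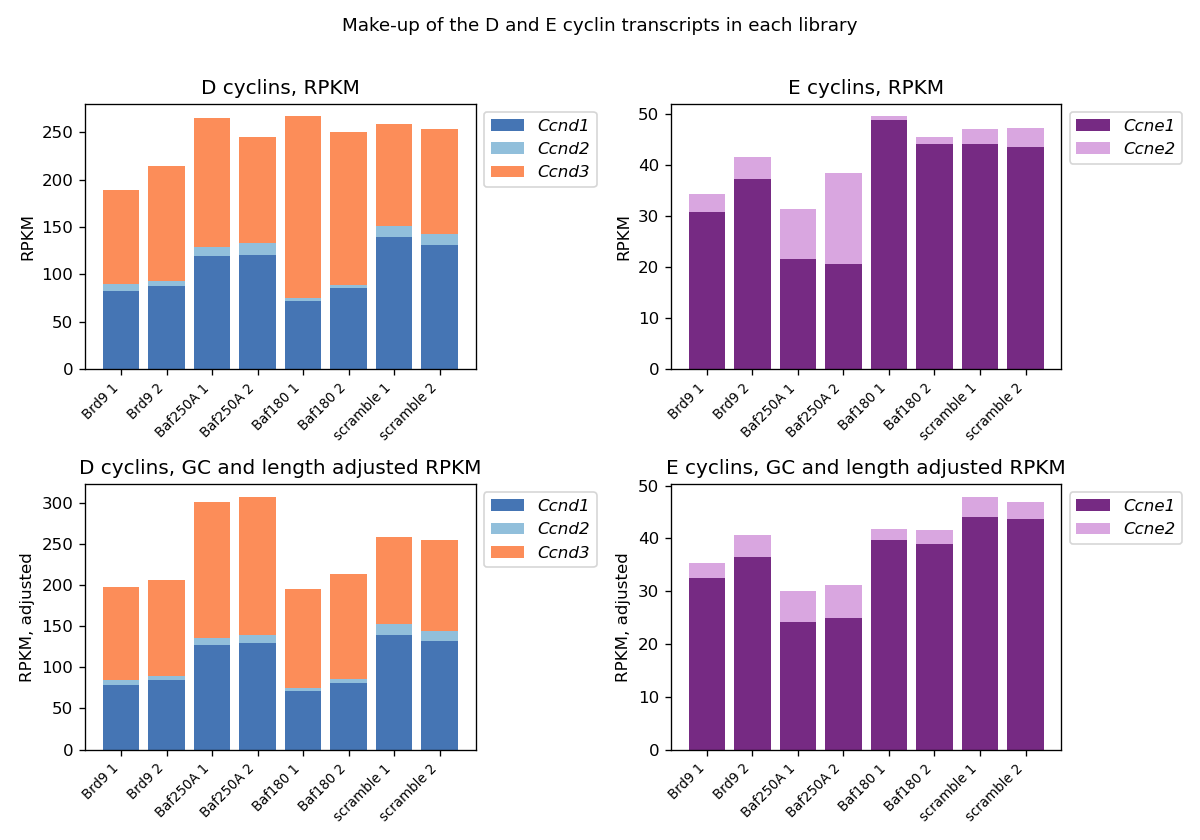
Stacked bars of RPKM per library for the D cyclins (left) and E cyclins (right), before (top) and after (bottom) removal of the GC and length trend, with the y axes from 0. Ccnd3 is the larger part of the Baf180 bars at 71.9 and 64.4% of D cyclin RPKM, and Ccne2 takes 31.0 and 46.2% of the E cyclin bars in Baf250A libraries before and 19.3 and 19.6% after adjustment.

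The E cyclins moved in opposite directions under Baf250A knockdown, Ccne1 down and Ccne2 up. Ccne1 (chromosome 7, 38097984 to 38107490), an activator of Cdk2 at the start of S phase, had 62.3 and 75.3 CPM in Brd9 cells, 43.8 and 41.9 in Baf250A cells, 98.7 and 89.4 in Baf180 cells, and 89.3 and 87.9 in scramble cells. The Baf250A pair was the lowest of the 4 groups, and the Brd9 pair came next. Against scramble Ccne1 fell 2.07-fold in Baf250A cells (log2 fold change -1.05, SE 0.14, adjusted p = 0.00102), and the adjusted value was -0.83 (adjusted p = 6.27e-05). This call was made in 8 of 8 fits with 1 library left out, with and without the offsets. In Brd9 cells the value was -0.37 (95% interval -0.67 to -0.06, adjusted p = 0.113). With the offsets it was -0.34 and passed (adjusted p = 0.0141), but not without scramble replicate 1, scramble replicate 2 or Brd9 replicate 1 (adjusted p up to 0.131). In Baf180 cells it was 0.09 (95% interval -0.22 to 0.39, adjusted p = 0.647) and, adjusted, -0.15 (adjusted p = 0.183).

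Ccne2 (chromosome 4, 11190433 to 11204779), the other E cyclin, had 221 and 254 counts in Brd9 cells, 586 and 1043 in Baf250A cells, 40 and 74 in Baf180 cells, and 153 and 199 in scramble cells. The Baf250A libraries were the highest and the Baf180 libraries the lowest, and the Brd9 and scramble libraries overlapped. Ccne2 rose 4.15-fold in Baf250A cells (log2 fold change 2.05, SE 0.33, adjusted p = 0.00277) and fell 3.15-fold in Baf180 cells (-1.65, SE 0.36, adjusted p = 0.00966). Its transcripts have the lowest GC content of the 9 genes, and the trend of all genes at that GC content and length (log2) was 0.30 and 0.08 for Brd9, 0.75 and 1.54 for Baf250A, -1.41 and -1.02 for Baf180, and -0.47 and 0.23 for scramble. With the offsets the Baf250A rise was 1.67-fold (0.74, SE 0.18, adjusted p = 0.00932). It was lost without scramble replicate 2 or Baf250A replicate 2 (adjusted p up to 0.0695). For Brd9 cells the values were 0.26 (95% interval -0.48 to 1.00, adjusted p = 0.624) and, adjusted, -0.02 (adjusted p = 0.938). The Baf180 value became -0.57 (SE 0.22, adjusted p = 0.0679) and was no longer called. The call without offsets was also lost without scramble replicate 2 or Baf180 replicate 1 (adjusted p up to 0.0692). Ccne2 made up 10.3 and 10.6% of E cyclin RPKM in Brd9 libraries, 31.0 and 46.2% in Baf250A libraries, 1.55 and 2.93% in Baf180 libraries, and 6.04 and 8.04% in scramble libraries.

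Of the kinases, Cdk4 was called lower than scramble in Baf250A cells and Cdk6 in Baf180 cells after TMM scaling. Cdk4 (chromosome 10, 127063535 to 127067288), a partner of the D cyclins, had 565 and 638 CPM in Brd9 cells, 630 and 550 in Baf250A cells, 760 and 635 in Baf180 cells, and 825 and 868 in scramble cells. Every knockdown library lay below both scramble libraries. The log2 fold change against scramble was -0.49 in Brd9 cells (SE 0.14, adjusted p = 0.0592), -0.52 in Baf250A cells (SE 0.14, adjusted p = 0.0254) and -0.28 in Baf180 cells (SE 0.14, adjusted p = 0.153). Adjusted, the values were -0.38 (adjusted p = 0.00722), -0.26 (adjusted p = 0.0346) and -0.53 (adjusted p = 0.000876), so that Cdk4 was called lower in all 3 knockdowns. Its Baf250A call was lost without either scramble or either Baf250A library, on both scales (adjusted p up to 0.242 and, adjusted, 0.241). The adjusted Brd9 call was lost without scramble replicate 2 (adjusted p = 0.0621), and the adjusted Baf180 call was made in 8 of 8 fits. These comparisons share the scramble libraries, so a difference of that line would appear in each.

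Cdk6 (chromosome 5, 3341004 to 3531008), the second kinase of the D cyclins, had 73.2 and 53.6 CPM in Brd9 cells, 93.1 and 117 in Baf250A cells, 41.6 and 48.6 in Baf180 cells, and 64.3 and 78.9 in scramble cells. The Baf250A libraries were the highest, the Baf180 libraries the lowest, and the other two groups overlapped. It fell 1.59-fold in Baf180 cells (log2 fold change -0.67, SE 0.20, adjusted p = 0.0283), a call lost without scramble replicate 1, scramble replicate 2 or Baf180 replicate 1 (adjusted p up to 0.183). With the offsets it stood at -0.12 (adjusted p = 0.313). In Brd9 cells the opposite happened, with -0.18 (adjusted p = 0.564) before and -0.61 (SE 0.09, adjusted p = 0.00100) after, a fall called in 8 of 8 adjusted fits. In Baf250A cells it was 0.55 (adjusted p = 0.0583) before and 0.04 (adjusted p = 0.743) after. Adjusted levels were 50.7 and 49.1 CPM in Brd9 cells, 82.9 and 74.3 in Baf250A cells, 71.2 and 68.9 in Baf180 cells, and 73.4 and 79.2 in scramble cells. Per length Cdk6 was 0.643 to 2.45% of the summed Cdk4 and Cdk6 RPKM in the 8 libraries.

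Cdk2 (chromosome 10, 128697938 to 128705051), the kinase of the E cyclins, was called in no comparison with scramble after TMM scaling. It had 53.6 and 56.5 CPM in Brd9 cells, 58.5 and 64.4 in Baf250A cells, 59.1 and 63.9 in Baf180 cells, and 67.8 and 65.4 in scramble cells. Against scramble the log2 fold changes were -0.28 in Brd9 cells (95% interval -0.56 to 0.01, adjusted p = 0.178), -0.12 in Baf250A cells (-0.40 to 0.17, adjusted p = 0.501) and -0.11 in Baf180 cells (-0.40 to 0.17, adjusted p = 0.501). With the offsets the Brd9 value of -0.34 was called (adjusted p = 0.0173), though not without scramble replicate 1, scramble replicate 2 or Brd9 replicate 1 (adjusted p up to 0.154). Adjusted values were -0.12 in Baf250A cells (adjusted p = 0.335) and -0.05 in Baf180 cells (adjusted p = 0.692).

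Cdc25a (chromosome 9, 109875518 to 109893895), the phosphatase that activates Cdk2, was highest in Baf250A cells and lowest in Baf180 cells. It had 53.5 and 57.2 CPM in Brd9 cells, 84.5 and 80.1 in Baf250A cells, 43.9 and 45.7 in Baf180 cells, and 69.7 and 66.6 in scramble cells, and no groups overlapped. Relative to scramble it fell 1.52-fold in Baf180 cells (log2 fold change -0.61, SE 0.12, adjusted p = 0.00722; adjusted value -0.72, adjusted p = 0.000133). The first call was lost without scramble replicate 1 or scramble replicate 2 (adjusted p up to 0.0678) and the second was made in 8 of 8 fits. In Baf250A cells it was 0.27 (adjusted p = 0.117) and with the offsets 0.41, which passed (adjusted p = 0.00354) in 8 of 8 fits. In Brd9 cells it was -0.30 (adjusted p = 0.137) and with the offsets -0.34 (adjusted p = 0.0126), lost without scramble replicate 1 or Brd9 replicate 1 (adjusted p up to 0.0951).

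**Figure D3:**
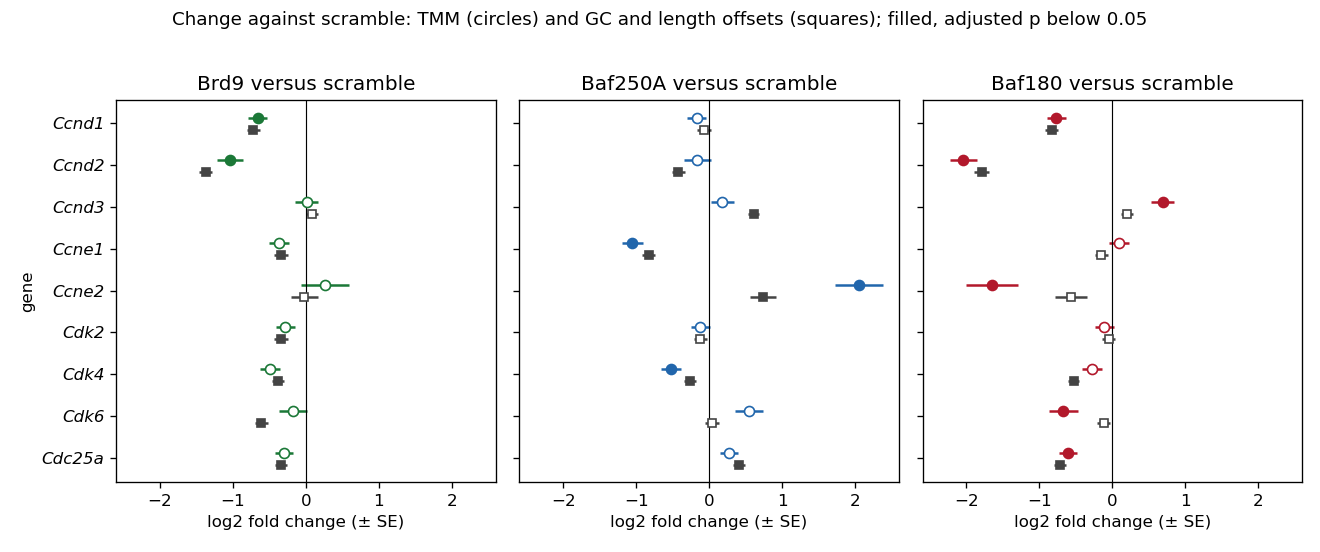
Log2 fold change against scramble (x axis, bars ± SE) for the 9 genes (y axis) in Brd9, Baf250A and Baf180 knockdown, after TMM scaling (circles) and with GC and length offsets (squares), filled where the adjusted p is below 0.05. Ccnd2 shows the lowest squares for Brd9 (-1.37) and Baf180 (-1.79), and Ccne1 the lowest for Baf250A (-0.83).

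**Figure D4:**
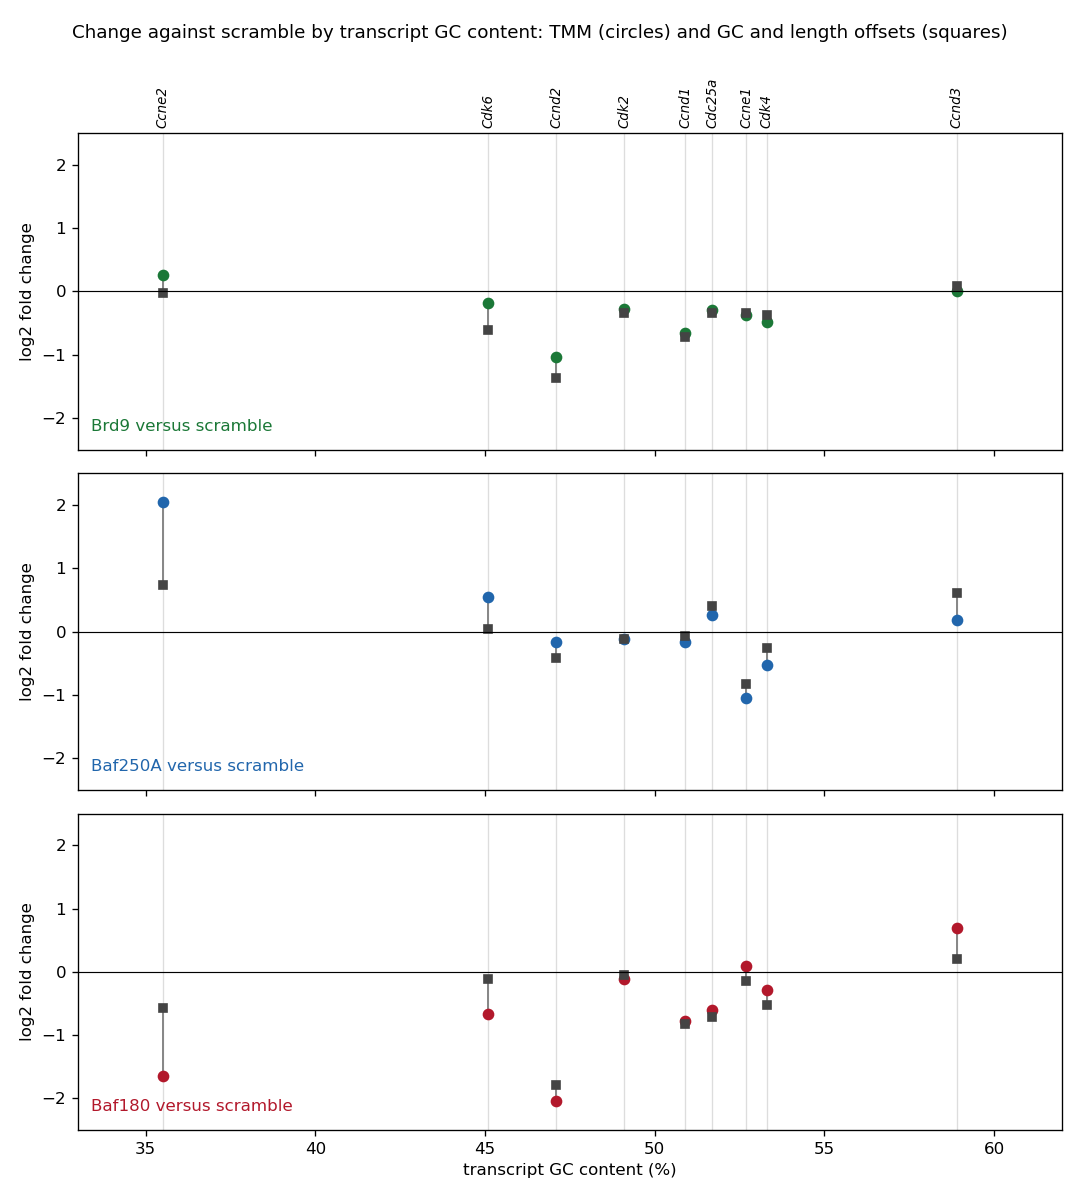
Log2 fold change against scramble (y axis) of the 9 genes by transcript GC content in percent (x axis), after TMM scaling (circles) and with GC and length offsets (squares), joined by a line for each gene. Ccne2 at 35.5% GC moves from 2.05 to 0.74 for Baf250A and from -1.65 to -0.57 for Baf180, while Ccnd1 at 50.9% moves from -0.66 to -0.72 for Brd9 and from -0.77 to -0.83 for Baf180.

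Set against each other, Brd9 and Baf250A cells differed in 6 of the 9 genes, 1 higher and 5 lower in Brd9 cells, beside 25.0% of all genes (15.0% higher and 10.0% lower). With the offsets 1 was higher and 6 lower, beside 44.2% (18.7% higher and 25.5% lower), and all 6 of the first calls were among them in the same direction. Ccnd1 (log2 fold change -0.49, adjusted p = 0.0247; adjusted value -0.65, adjusted p = 0.000397), Ccnd2 (-0.89, adjusted p = 0.00879; adjusted value -0.94, adjusted p = 2.51e-05) and Ccne2 (-1.79, adjusted p = 0.00460; adjusted value -0.76, adjusted p = 0.00517) were lower in Brd9 cells. So were Cdk6 (-0.73, adjusted p = 0.0251; adjusted value -0.65, adjusted p = 0.000276) and Cdc25a (-0.57, adjusted p = 0.0101; adjusted value -0.75, adjusted p = 6.70e-05). Ccne1 was higher in Brd9 cells (0.68, adjusted p = 0.00781; adjusted value 0.49, adjusted p = 0.00147). Ccnd3 was called with the offsets alone (-0.53, adjusted p = 0.000519, against -0.17, adjusted p = 0.450). Before adjustment the Ccnd1 call was lost without any of the 6 scramble, Brd9 and Baf250A libraries (adjusted p up to 0.101), and those of Ccnd2, Ccne1 and Cdk6 were lost without Brd9 replicate 2 or Baf250A replicate 2 (adjusted p up to 0.132). With the offsets the one call lost was Ccne2 without Brd9 replicate 1 (adjusted p = 0.0545).

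Between Baf250A and Baf180 cells 5 genes were higher and 2 lower in Baf250A cells, beside 62.5% of all genes (30.8% higher and 31.7% lower). With the offsets 6 were higher and 1 lower, beside 54.7% (28.5% higher and 26.2% lower), and 5 genes were called in the same direction both times. Ccne2 differed most before adjustment (3.70, SE 0.37, adjusted p = 0.000104; adjusted value 1.31, adjusted p = 0.000465). Ccnd1 (0.60, adjusted p = 0.00332; adjusted value 0.75, adjusted p = 0.000107), Ccnd2 (1.88, adjusted p = 0.000116; adjusted value 1.36, adjusted p = 3.43e-06) and Cdc25a (0.88, adjusted p = 0.000427; adjusted value 1.14, adjusted p = 4.65e-06) were also higher in Baf250A cells. Ccne1 was lower there (-1.13, adjusted p = 0.000243; adjusted value -0.68, adjusted p = 0.000132). These 5 calls were made in 8 of 8 fits with 1 library left out, with and without the offsets. Cdk6 was called before adjustment alone (1.22, adjusted p = 0.000774, then 0.17, adjusted p = 0.147). Cdk4 had the other sign after adjustment (-0.24, adjusted p = 0.166, then 0.27, adjusted p = 0.0192), a call lost without Baf250A replicate 1, Baf250A replicate 2 or Baf180 replicate 2 (adjusted p up to 0.133).

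Between Brd9 and Baf180 cells 2 genes were higher and 2 lower in Brd9 cells, beside 49.6% of all genes (26.3% higher and 23.3% lower). With the offsets there were also 2 higher and 2 lower, beside 32.9% (14.0% higher and 18.9% lower), but Ccnd2 was the one gene called both times. Ccne2 (1.91, adjusted p = 0.00556), Ccnd3 (-0.68, adjusted p = 0.00970) and Ccne1 (-0.45, adjusted p = 0.0243) were called before adjustment alone, with adjusted values of 0.54 (adjusted p = 0.0803), -0.12 (adjusted p = 0.291) and -0.19 (adjusted p = 0.116). Of these, Ccnd3 was lost without Brd9 replicate 1 or Baf180 replicate 1 (adjusted p up to 0.0815), and Ccne1 without either scramble library, Brd9 replicate 1 or Baf180 replicate 1 (adjusted p up to 0.191). Cdk6 was 0.49 before (adjusted p = 0.0607) and -0.49 after adjustment (adjusted p = 0.00365). Cdc25a was 0.30 before (adjusted p = 0.0649) and 0.38 after (adjusted p = 0.00754). Cdk2 was -0.16 before (adjusted p = 0.307) and -0.29 after (adjusted p = 0.0317), and that call was made in 1 of 8 fits with 1 library left out (adjusted p up to 0.237).

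In descending order of mean CPM, Ccnd1 ran from scramble through Baf250A and Brd9 to Baf180, and of these neighbours Baf250A and Brd9 differed by the test. Ccnd2 had the same order, with differences between Baf250A and Brd9 and between Brd9 and Baf180. Ccnd3 ran from Baf180 through Baf250A and Brd9 to scramble, with a difference between Baf180 and Baf250A that had the other sign after adjustment. Ccne1 ran from Baf180 through scramble and Brd9 to Baf250A, and the last pair differed. Ccne2 ran from Baf250A through Brd9 and scramble to Baf180, with differences between Baf250A and Brd9 and between scramble and Baf180. The second of these was not called with the offsets (adjusted p = 0.0679 by edgeR). For Cdk2, Cdk4, Cdk6 and Cdc25a no neighbours in the order passed the test after TMM scaling. With the offsets every pair of neighbours of Cdc25a passed (adjusted p = 0.00354, 0.0126 and 0.00754 by edgeR). So did scramble and Baf180 for Cdk4 (0.000876), and for Cdk6 scramble and Brd9 (0.00100) and Brd9 and Baf180 (0.00365). The order itself changed, as adjusted Cdk6 was lowest in Brd9 cells and adjusted Cdk4 lowest in Baf180 cells. Neighbours of Ccnd2, Ccnd3 and Ccne1 that also passed with the offsets alone are given above.

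Promoters of Ccnd3, Ccne1, Cdk2, Cdk4, Cdk6 and Cdc25a (RefSeq, GRCm38.p6, the 250 bases before the start) were searched for motifs. No promoter window was at hand for Ccnd1, Ccnd2 and Ccne2, so these genes were not searched. The windows of Cdk4 and Cdc25a are shown because they held a match and their genes were called lower under both processings. Positions count back from the start in the promoter table, which for Cdc25a, Cdk6 and a second Ccnd3 window lies inside the gene span given above. The motifs were CACGTG, the core of the E-box that Myc with Max binds, and the E2F words TTTGGCGC, TTTCCCGC, TTTCGCGC and TTTGCCGC, the GC box GGGCGG and the AP-1 site TGANTCA, on both strands. No CACGTG match overlapped an E2F word in these windows. CACGTG was found in 6.02% of the 32851 promoter windows an E2F word in 1.86%, GGGCGG in 32.7% and TGANTCA in 6.75%. GGGCGG was found in the window of each of the 6 genes but Cdk6, and TGANTCA in none of them. Cdk4, lower in Baf250A cells, held 4 CACGTG matches, whose first bases lay 172, 118, 98 and 11 bases before the start. Its window is chr10:127063285-127063534, plus strand, with the CACGTG matches in capitals:
Cdk4: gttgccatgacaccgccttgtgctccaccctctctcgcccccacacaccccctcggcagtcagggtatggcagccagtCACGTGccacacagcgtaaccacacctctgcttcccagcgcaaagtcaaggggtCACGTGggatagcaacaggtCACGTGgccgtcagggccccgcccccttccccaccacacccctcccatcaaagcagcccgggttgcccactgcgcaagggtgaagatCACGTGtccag
Cdc25a, lower in Baf180 cells, held an E2F word 67 bases before the start, in chr9:109875329-109875578, plus strand, with the E2F word in capitals:
Cdc25a: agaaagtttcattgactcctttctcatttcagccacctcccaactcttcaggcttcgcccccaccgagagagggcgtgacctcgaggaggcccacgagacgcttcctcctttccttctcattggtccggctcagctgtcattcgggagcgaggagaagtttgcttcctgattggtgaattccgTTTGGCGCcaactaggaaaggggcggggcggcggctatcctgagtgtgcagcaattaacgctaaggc
Cdk2, called in no comparison with scramble after TMM scaling, held TTTCCCGC on the strand opposite to its gene, 140 bases before the start, and Cdk6 held a single CACGTG at 220. Neither CACGTG nor an E2F word was found in the windows of Ccne1 and Ccnd3. Such a match is a run of letters and does not show binding.

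Around these genes in the pathway, counts of called genes are to be read against the shares of all tested genes called, 10.0% for Brd9, 29.5% for Baf250A and 34.2% for Baf180, and with the offsets 30.1%, 35.1% and 37.8%. The Myc and mitogen list had 11 of 12 genes tested, with 0 higher and 1 lower in Brd9 cells, 2 and 2 in Baf250A cells, and 3 and 1 in Baf180 cells, the last 2 groups near the shares of all genes. With the offsets there were 1 higher and 4 lower in Brd9 cells, 4 and 2 in Baf250A cells, and 2 and 4 in Baf180 cells, so that the balance in Baf180 cells turned. Egr1, an immediate early factor, was lower in Baf250A cells (log2 fold change -0.94, adjusted p = 0.00142; adjusted value -0.68, adjusted p = 0.00182) and higher in Baf180 cells (0.76, adjusted p = 0.00358; adjusted value 0.48, adjusted p = 0.0101). Ets1 was higher in Baf250A cells (1.10, adjusted p = 0.00239; adjusted value 1.03, adjusted p = 3.78e-05) and Fos was higher in Baf180 cells (1.47, adjusted p = 0.00370; adjusted value 1.28, adjusted p = 0.00161). Fosl1, an AP-1 subunit, was lower in Brd9 cells (-0.68, adjusted p = 0.0407; adjusted value -0.58, adjusted p = 0.000822).

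Among CDK inhibitors, 5 of 7 were tested, with 0 called in Brd9 cells (10.0% of all genes), 1 higher in Baf250A cells (29.5%) and 3 higher in Baf180 cells (34.2%). With the offsets 1 was higher in Brd9 cells, 1 higher and 1 lower in Baf250A cells, and 2 higher in Baf180 cells. Cdkn1a, which encodes p21, was higher in Baf180 cells (0.91, adjusted p = 0.00256; adjusted value 0.58, adjusted p = 0.000406). Cdkn2c, an inhibitor of Cdk4 and Cdk6, was higher in Baf250A cells (0.58, adjusted p = 0.0230; adjusted value 0.73, adjusted p = 0.00191) and in Baf180 cells (0.66, adjusted p = 0.0127; adjusted value 0.52, adjusted p = 0.0114).

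The pocket protein and E2F list had 13 genes tested, with 2 higher and 2 lower in Brd9 cells (10.0% of all genes called), 6 higher and 0 lower in Baf250A cells (29.5%), and 0 higher and 2 lower in Baf180 cells (34.2%). With the offsets the counts were 2 higher and 5 lower in Brd9 cells (30.1%), 7 and 0 in Baf250A cells (35.1%), and 1 and 3 in Baf180 cells (37.8%). In Brd9 cells E2f2 was lower (-1.26, adjusted p = 0.00142; adjusted value -1.29, adjusted p = 2.38e-05) and Rbl2, a pocket protein, higher (1.12, adjusted p = 0.00917; adjusted value 0.82, adjusted p = 0.000397). In Baf250A cells E2f6, a repressor E2F, was higher (0.61, adjusted p = 0.0148; adjusted value 0.60, adjusted p = 0.000673) and so was Rb1 (1.05, adjusted p = 0.0160; adjusted value 0.23, adjusted p = 0.356). In Baf180 cells E2f4 (-0.51, adjusted p = 0.0132; adjusted value -0.91, adjusted p = 0.000110) and Rbl1 (-0.85, adjusted p = 0.0384; adjusted value -0.22, adjusted p = 0.178) were lower.

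Of 21 E2F targets at the start of S phase, 5 were lower and 0 higher in Brd9 cells, where 3.57% of all tested genes were lower. In Baf250A cells 1 was lower and 4 were higher, where 14.0% and 15.5% of all genes were, and in Baf180 cells 9 were lower and 0 higher, where 17.0% and 17.2% were. With the offsets 13 were lower and 0 higher in Brd9 cells, where 18.3% of all genes were lower. In Baf250A cells 1 was then lower and 8 higher, where 17.7% of all genes were higher, and in Baf180 cells 14 were lower and 0 higher, where 20.1% were lower. The median log2 fold change of the list was -0.50 in Brd9 cells, 0.07 in Baf250A cells and -0.26 in Baf180 cells, and with the offsets -0.47, 0.14 and -0.38. Examples are the licensing factor Cdt1 (-0.77, adjusted p = 0.0190; adjusted value -0.72, adjusted p = 0.000254) and Mcm10 (-0.69, adjusted p = 0.0190; adjusted value -0.76, adjusted p = 0.00259) in Brd9 cells. Dbf4, the activator of the Cdc7 kinase, was higher in Baf250A cells (0.95, adjusted p = 0.00904; adjusted value 0.53, adjusted p = 0.00101). Orc1 (-1.03, adjusted p = 0.00320; adjusted value -0.76, adjusted p = 0.000851) and Gins1 (-1.01, adjusted p = 0.00440; adjusted value -0.72, adjusted p = 0.00596) were lower in Baf180 cells.

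Of 14 genes of S and M phase, 1 was lower in Brd9 cells, 1 lower and 4 higher in Baf250A cells, and 8 lower and 1 higher in Baf180 cells, beside 10.0%, 29.5% and 34.2% of all genes called. With the offsets 9 were lower and 0 higher in Brd9 cells, 1 and 1 in Baf250A cells, and 9 and 0 in Baf180 cells, beside 30.1%, 35.1% and 37.8%. Cdc25b, a phosphatase of mitotic entry, was lower in Brd9 cells (-0.71, adjusted p = 0.0402; adjusted value -0.70, adjusted p = 0.00194). Bub1 and Top2a were higher in Baf250A cells (1.02 and 0.75, adjusted p = 0.0118 and 0.0196), with adjusted values of 0.21 and 0.16 that were not called (adjusted p = 0.113 and 0.351). Both were lower in Baf180 cells (-1.35 and -1.04, adjusted p = 0.00386 and 0.00491), with adjusted values of -0.65 and -0.51 that were called.

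The CDK-activating kinase list had 3 genes tested, of which 2 were higher in Baf250A cells, where 15.5% of all genes were, namely Ccnh (0.85, adjusted p = 0.00713) and Cdk7 (0.80, adjusted p = 0.0102). Their adjusted values were -0.12 and 0.19 and were not called. In Brd9 and Baf180 cells 0 of the 3 were called. With the offsets 1 was lower in Baf250A cells, 1 higher in Baf180 cells and 0 called in Brd9 cells. Cyclin degradation genes numbered 14, with 0 called in Brd9 cells, 3 higher and 2 lower in Baf250A cells, and 2 higher and 2 lower in Baf180 cells, the last 2 groups near the 29.5% and 34.2% of all genes. With the offsets 0 were higher and 2 lower in Brd9 cells (30.1% of all genes called), 3 and 2 in Baf250A cells (35.1%), and 0 and 2 in Baf180 cells (37.8%). Fbxw7, the F-box protein that targets cyclin E for destruction, was higher in Baf250A cells (0.91, adjusted p = 0.0198; adjusted value 0.62, adjusted p = 0.0107). Skp2, the F-box protein that targets the inhibitor p27, was lower in Baf180 cells (-0.82, adjusted p = 0.0127; adjusted value -0.68, adjusted p = 0.00212). Cul3 was higher in Baf250A cells (1.04, adjusted p = 0.00686; adjusted value 0.02, adjusted p = 0.910) and lower in Baf180 cells (-1.29, adjusted p = 0.00282; adjusted value -0.46, adjusted p = 0.0142).

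Markers of cell type and state also moved in these libraries. Of 7 myoblast markers, 2 were higher and 0 lower in Brd9 cells, 1 and 4 in Baf250A cells, and 5 and 1 in Baf180 cells, beside 10.0%, 29.5% and 34.2% of all genes called. With the offsets the counts were 2 higher and 2 lower in Brd9 cells, 1 and 4 in Baf250A cells, and 4 and 1 in Baf180 cells. The 4 lower in Baf250A cells under both processings were Cdh15 (-2.46; adjusted value -2.04), Itga7 (-2.06; adjusted value -1.74), Pax7 (-2.40; adjusted value -2.16) and Myf5 (-0.86; adjusted value -1.53). The Pax7 value rests on few counts, 18 and 4 in Baf250A libraries and 57 and 48 in scramble libraries. Pax7 had 240 and 195 counts in Brd9 libraries and 266 and 254 in Baf180 libraries. Vcam1, of the same list, went the other way, with 109 and 122 CPM in Baf250A and 57.2 and 53.8 in scramble libraries. It was also above scramble in Brd9 (91.7 and 79.9) and Baf180 libraries (109 and 126). In Baf180 libraries Myod1 had 366 and 292 CPM, Cdh15 327 and 256, and Itga7 401 and 312. Scramble libraries had 154 and 157, 168 and 165, and 280 and 283. Myf5 was lower in Baf180 libraries, at 7.13 and 10.7 against 22.2 and 28.0 CPM. The summed level of the 7, most of it Des, was 1273 and 1685 CPM in Brd9 libraries, 1099 and 888 in Baf250A libraries, 3290 and 2319 in Baf180 libraries, and 1660 and 1639 in scramble libraries.

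Of 8 markers of differentiating myocytes 5 were tested, with 3 higher and 0 lower in Brd9 cells, 1 and 1 in Baf250A cells, and 2 and 1 in Baf180 cells, beside 10.0%, 29.5% and 34.2% of all genes called. With the offsets there were 3 higher and 1 lower in Brd9 cells and the same counts in the other knockdowns. The rises in Brd9 cells rest on few counts. Myog had 17 and 29 counts in Brd9 and 4 and 4 in scramble libraries, Mymk 34 and 42 against 9 and 3, and Myh3 12 and 17 against 3 and 0. Outside the Brd9 libraries Mymk had at most 9 counts and Myh3 at most 4, so both passed the filter on low counts through the Brd9 libraries. The more abundant Acta1 and Actc1 were lower in both Brd9 libraries than in scramble libraries. The summed level of the 8 was 16.5 and 23.2 CPM in Brd9 libraries, 43.0 and 37.9 in Baf250A libraries, 120 and 98.5 in Baf180 libraries, and 23.2 and 22.3 in scramble libraries, and none of the 8 was at 0 in all libraries. Acta1, an actin of differentiated muscle, made up most of it, with 9.40 and 13.8 CPM in Brd9 libraries, 41.1 and 35.2 in Baf250A libraries, 114 and 93.7 in Baf180 libraries, and 15.9 and 17.2 in scramble libraries. Myog, the factor that marks the step into differentiation, had 0.824 and 1.52 CPM in Brd9 libraries, 0.101 and 0.361 in Baf250A libraries, 1.62 and 1.36 in Baf180 libraries, and 0.225 and 0.231 in scramble libraries. Actc1, another actin of the list, was lower in every knockdown library than in both scramble libraries. It had 3.30 and 3.51 CPM in Brd9, 1.71 and 1.65 in Baf250A, 3.54 and 2.24 in Baf180, and 5.95 and 4.39 in scramble libraries. Mymk had 1.65 and 2.20 CPM in Brd9 libraries and 0.0503 to 0.505 in the others. Of 3 fibroblast and mesenchymal markers 2 were tested, with 1 higher in Brd9 cells, 1 in Baf250A cells and 2 in Baf180 cells under both processings. The 3 summed to 27.1 and 19.6 CPM in Brd9 libraries, 33.3 and 39.7 in Baf250A libraries, 23.9 and 26.6 in Baf180 libraries, and 9.15 and 7.51 in scramble libraries. Nearly all of that was Pdgfra, with 26.5 and 19.0 CPM in Brd9 libraries, 33.1 and 39.3 in Baf250A libraries, 23.2 and 25.6 in Baf180 libraries, and 9.10 and 7.22 in scramble libraries. Markers of endothelium, of blood and of epithelium each summed to at most 2.61 CPM in any library. The part of these markers in the differences of the G1 genes was not tested.

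For each D cyclin the 3 genes whose log2 CPM ran most alike over the 8 libraries were taken from 9807 genes averaging 5 CPM or more. This is a description, since the libraries share depth and the GC trend. For Ccnd1 they were Pwp1, Hbegf and Nup50 (Pearson r = 0.991, 0.984 and 0.983). For Ccnd2 they were Msh6, Gnl2 and Ddx21 (0.993, 0.992 and 0.990). For Ccnd3 they were Slc16a11, Ptpn1 and Ctdsp1 (0.996, 0.995 and 0.993), whose transcripts have 63.6, 55.8 and 57.6% GC.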

How the data were processed

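RNA of 8 libraries of proliferating C2C12 cells was extracted with TRIzol, and libraries were made at BGI and sequenced on a BGISEQ-500, per the labels' protocols. The authors deposited 1 table of estimated counts, not normalised, with decimals in 7.41% of values, beside another column, per the file headers, of gene length. Bowtie2, Cufflinks, DESeq2, HISAT2, RSEM, StringTie and mm10 appear in the submitters' processing notes, with no roles or versions. Whether counting used strand is not stated there, and reads of overlapping antisense genes could not be told apart. Groups came from the sample titles and matching column names. Of 24573 gene IDs, 24479 were named by ID and 9 by accession from a RefSeq table of GRCm38.p6.

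Counts were rounded, filtered by filterByExpr (12420 genes) and scaled by TMM. All libraries entered 1 quasi-likelihood fit in edgeR 4.0.16 (R 4.3.3) with 4 groups, giving 6 comparisons, each adjusted by Benjamini-Hochberg over all tested genes, with calls at an adjusted p below 0.05. The SE is the absolute log2 fold change over the square root of F. CPM and RPKM use TMM-scaled library sizes, and RPKM the deposited gene length. For the offsets, a loess curve (span 0.3) of each library's deviation in log2 CPM was fitted on GC content (GENCODE M21 transcripts matched by RefSeq accession, 98.95% of tested genes) and then on log2 length. Expression changes that follow GC content are removed with it. The fit was tested, with and without the offsets, on simulated counts that held no GC or length trend. How well the offsets remove such a trend was not tested. The 9 genes, the lists and the alternatives, offsets included, were chosen with earlier results of these data known. Named are the 9 genes, the 3 targets, up to 2 called genes of lowest p per list and comparison, and the 3 genes most like each D cyclin. Myod1, Des, Epcam, Myog, Pax7, Myf5, Vcam1, Acta1, Actc1, Mymk, Myh3 and Pdgfra are markers chosen after their values were seen. The lowest count of the 9 genes was 40, for Ccne2. Replicate counts differed by 8.70 to 36.1 times the sampling variance, so no library was a copy of another.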

Additional observations from a re-analysis of the deposited data

How the results depend on the processing

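The count of the 9 genes called kept within 1.5 times its value in each of the 6 comparisons under DESeq2, limma-voom, upper-quartile scaling, RLE, a 5 CPM filter, no filter and fits of the 4 libraries compared. It moved with the GC and length offsets to 7 genes for Brd9 against scramble, where 2 were called with TMM, and to 6 for Baf250A against scramble, where 3 were. With 1 library left out it ranged, without and with offsets, from 0 to 7 for Brd9 against scramble, 2 to 6 for Baf250A against scramble, 2 to 6 for Baf180 against scramble, 2 to 7 for Brd9 against Baf250A and 2 to 5 for Brd9 against Baf180. Of the 49 values given between groups in the Results, 1 was weaker with a replicate block, as below, and 7 with the offsets. With the offsets 14 became calls, 2 of them with the other sign, and 5 of the 49 changed sign. The cause of these changes was not tested.

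The values that changed sign with the offsets were those of Ccnd3 (0.42) and Cdk4 (0.27) for Baf250A against Baf180, Cdk6 for Brd9 against Baf180 (-0.49), Ccne1 for Baf180 against scramble (-0.15) and Ccne2 for Brd9 against scramble (-0.02). Ccnd3 for Brd9 against scramble, near 0 in any case, was -0.01 with RLE scaling and with DESeq2. Leaving out 1 library, without and with the offsets, gave -0.46 to 0.07 for Ccnd2, -0.15 to 0.02 for Cdk2 and -0.01 to 0.77 for Cdk6 in Baf250A against scramble. The same gave -0.11 to 0.17 for Ccnd3, -0.29 to 0.48 for Ccne2 and -0.65 to 0.05 for Cdk6 in Brd9 against scramble, and -0.17 to 0.16 for Ccne1 in Baf180 against scramble. For Baf250A against Baf180 it gave -0.63 to 0.46 for Ccnd3 and -0.37 to 0.30 for Cdk4, and for Brd9 against Baf180 -0.51 to 0.70 for Cdk6. Cdk4 in Brd9 against scramble, not called with TMM, was called with no filter (adjusted p = 0.0192), DESeq2 (adjusted p = 0.0157) and the 4 libraries alone (adjusted p = 0.0350). Cdk6 in Baf250A against scramble was called with RLE (adjusted p = 0.0452), no filter (adjusted p = 0.00889), DESeq2 (adjusted p = 0.0217) and the 4 libraries alone (adjusted p = 0.0204).

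Libraries of different groups share replicate numbers. Before adjustment the deviations of replicates correlated at 0.46 between Baf250A and Baf180, and at -0.47 and -0.48 between Brd9 and these groups. With scramble they correlated between -0.05 and 0.12. The GC trend enters these values, so they cannot show whether the numbers mark a shared batch, and this was not tested. With the replicate block the calls among the 9 genes were 2 for Brd9, 3 for Baf250A and 6 for Baf180 against scramble, and the Ccnd1 call between Brd9 and Baf250A was lost (adjusted p = 0.0522). With block and offsets they were 7, 5 and 4, and the values that changed sign were 0.42, 0.27, -0.49, -0.15 and -0.03, in the order given above for the offsets. Over all genes, calls for Brd9 against scramble numbered 1244 with TMM, 3734 with offsets, 3210 with offsets and block, 721 with the block, 2588 with no filter and 2540 with the 4 libraries alone, and 231 to 4081 with 1 library left out. For Baf250A and Baf180 against scramble, with 3669 and 4253 calls, leaving out 1 library without offsets brought these to as few as 1171 and 1560. Offsets gave 5494 in place of 3108 calls for Brd9 against Baf250A and 4085 in place of 6158 for Brd9 against Baf180.

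With 2 libraries a group, a single construct name per target and a shared scramble pair, neither hairpin nor culture effects can be told apart from the knockdown. Pathway lists were recomputed with the offsets alone. Counts were lowest for Ccne2, with 40 and 74 in Baf180 libraries, and its fold changes carry the largest SE of the 9 genes.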
